A study of Rattus norvegicus with 18 samples.

Results

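Beta cells are the insulin-secreting cells of the pancreatic islet, and in adult animals few of them divide. In a resting beta cell much of the RNA serves insulin production and secretion. A cell that enters the cell cycle makes RNA for DNA synthesis and mitosis, and in sequencing, where each library is a set of shares, a transcript's share can be lower because less of it is made or because other transcripts take more. EdU, a thymidine analogue, is built into new DNA and thereby labels cells that went through S phase while it was present.

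The genes described here are 44 abundant genes whose level was lower in replicating than in quiescent beta cells in islets of both old and young rats. They were chosen from 27654 genes by 3 conditions on the deposited log2 levels: a mean of at least 9 over the 18 libraries, and a replicative mean at least 0.8 below the quiescent mean, on the log2 scale, in old and again in young islets. Of the 2200 genes with that mean level, 46 met both conditions on the difference, and 2 of these were left out, being among 6 gene IDs that the choice set aside. Mitochondrially encoded genes were also to be left out. Because the files do not pair Ensembl IDs with names, this step could not be applied, and the 44 may hold such genes. For the same reason the genes are given by ID, at most 2 per direction in a comparison, and nothing is said of what each encodes.

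The 4 groups were old quiescent (4 libraries), old replicative (4), young quiescent (5) and young replicative (5). Islets of old and of young rats were cultured overnight in RPMI1640 with serum and glucose and all were exposed to 10 micromolar EdU, quiescent libraries included, and sorted cells were lysed for total RNA sequencing. The series text gives 9 islet batches of 2 rats each, with 1 quiescent and 1 replicating beta cell sample per batch, so each library pools animals. For strain, sex, exact age, sort gate and cell number, the sources used here give no value, and the labels name the cell type as pancreatic islets. The beta cell label could not be checked against marker genes, since 0 IDs could be matched to a symbol. In such bulk samples, fewer cells of a type and less RNA per cell cannot be told apart.

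Total counts ran from 2723660 to 14222719 per library. Old replicative replicate 3 was the shallowest library of its group, with 2975086 counts and 11859 detected genes against 13310 to 17772 in the other 3. The 44 genes were well covered in nearly all libraries. Of their 792 values, 3 were under 50 counts, in 3 different genes, and the lowest was 19 counts.

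The 44 genes spanned a wide range of read abundance, on a scale of read counts that is not corrected for gene length, so that these levels do not rank transcript numbers. Their mean log2 level ran from 9.02 to 14.00, with a median of 10.31, and the most abundant of them was number 14 of all genes in the series. Of the 44, 10 had a mean of 11 or more, 18 lay between 10 and 11, and 16 between 9 and 10. The 10 most abundant carried 55.0% of all counts assigned to the 44, the middle 18 carried 30.9% and the remaining 16 carried 14.1%.

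Together the 44 genes held 2.01% ± 0.0558 of all counts in old quiescent libraries (SD, n = 4). Their share in old replicative libraries was 0.916% ± 0.208 (SD, n = 4). The young quiescent libraries gave 2.01% ± 0.215 (SD, n = 5), and the young replicative ones 1.15% ± 0.169 (SD, n = 5). The lowest quiescent library held 1.77% and the highest replicative library 1.42%, so the quiescent and replicative libraries did not overlap at either age. These differences chose the genes and are therefore given as sizes, without a test. Within old replicative libraries the share was 0.643% in replicate 2, the lowest of all 18, and it was 0.866%, 1.07% and 1.08% in replicates 1, 3 and 4.

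**Figure D1:**
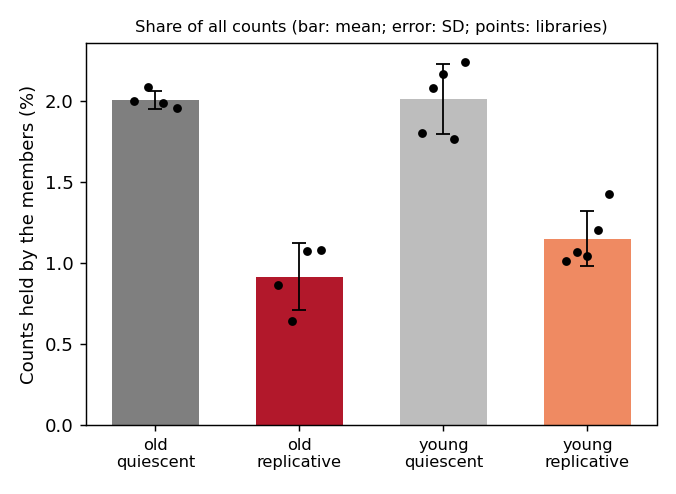
Share of all counts, in percent, held by the 44 genes in each group; bars give the mean, error bars the SD and points the libraries. The quiescent libraries sit between 1.77% and 2.24% and the replicative libraries between 0.643% and 1.42%.

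The difference was larger in old than in young islets for most of the 44. In old islets the replicative minus quiescent difference had a median of -1.44 on the log2 scale, a level 2.72-fold lower, and ran from -3.60 to -0.82. In young islets the median was -0.94, a level 1.91-fold lower, and the range was -1.67 to -0.80. The level was at least 1 log2 unit lower for 40 of the 44 in old and for 14 in young islets, and at least 2 units lower for 5 in old and 0 in young. The old difference was the more negative one for 41 of the 44 genes (93.2%). Among the other 2150 genes with a mean of at least 9 this held for 65.8%, and their median differences were -0.23 in old and -0.09 in young islets. As both differences were used in the choice of the genes, their contrast between the ages was not tested.

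**Figure D2:**
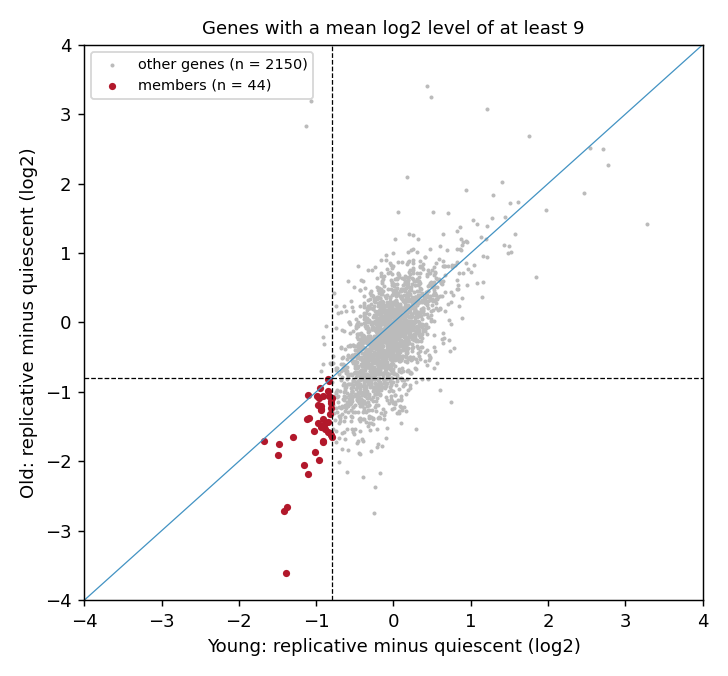
Replicative minus quiescent difference in deposited log2 level in young (horizontal axis) and old (vertical axis) islets for genes with a mean of at least 9; red points are the 44 genes, grey points the other 2150, of which 3 lie outside the axes. Dashed lines mark the thresholds at -0.8, the blue line marks equal differences, and 41 of the 44 red points lie below it.

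The conditions cut through closely spaced values in young islets. Just inside the young threshold the differences were -0.8003, -0.8009 and -0.8055, and just outside it, among genes that met the other conditions, -0.7914, -0.7878 and -0.7862. At the old threshold the values were -0.8187, -0.8466 and -0.9371 inside, and -0.6944, -0.603 and -0.5988 outside. The mean levels nearest to 9 were 9.0161, 9.0489 and 9.1785 inside and 8.9923, 8.9365 and 8.9096 outside. Of the 2200 abundant genes, 412 met the old threshold and 55 the young one, so the young condition was met by fewer genes. In the opposite direction, 95 abundant genes were at least 0.8 higher in old replicative cells, 59 in young ones and 42 in both.

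Each level class held genes with large and small differences. The 10 genes with a mean of 11 or more had a median difference of -1.29 in old and -0.85 in young islets, the 18 between 10 and 11 had -1.61 and -1.02, and the 16 between 9 and 10 had -1.49 and -0.91. The most abundant genes were the most uniform, from -1.65 to -0.85 in old and -0.98 to -0.80 in young islets. The lowest level class held the widest range in old islets, from -3.60 to -0.94.

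Library by library, the 44 genes were lower in nearly every replicative sample. In old islets, 42, 44, 38 and 42 of the 44 lay below the mean of the old quiescent libraries in replicates 1 to 4, with median deviations of -1.40, -2.08, -1.10 and -1.11. In young islets, 42, 44, 44, 41 and 37 lay below the young quiescent mean in replicates 1 to 5, with medians of -1.21, -1.01, -1.02, -0.78 and -0.90. Of the other 2150 abundant genes, 65.0%, 63.2%, 55.6% and 57.3% lay below the quiescent mean in old replicative replicates 1 to 4. In young replicative replicates 1 to 5 these shares were 67.0%, 58.5%, 60.8%, 48.5% and 49.1%. Old replicative replicate 2 was the lowest library of its group for 22 of the 44 genes, and replicate 3 the highest for 18. The spread was wide in old replicative replicates 1 and 3, where single genes deviated from the quiescent mean by as much as -7.13 and -4.98 while others lay up to 0.51 and 0.55 above it. The replicative libraries all lay below the quiescent ones for 24 of the 44 in old islets, where 13.8% of the 2200 abundant genes did so, and for 21 of the 44 in young islets, where 4.82% did. The groups were apart at both ages for 14 genes and overlapped at both ages for 13. For these counts over both ages no share of the abundant genes is given. These counts come from the contrast that chose the genes and are descriptions.

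**Figure D3:**
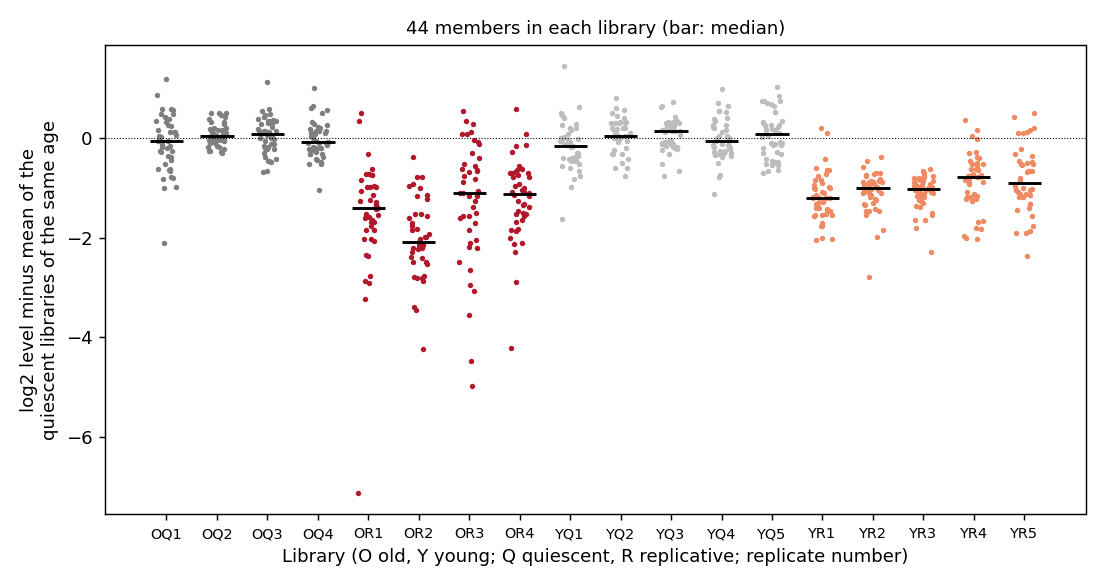
Log2 level of each of the 44 genes in each of the 18 libraries, minus the gene's mean in the quiescent libraries of the same age; black bars are medians. The replicative medians lie between -2.08 and -0.78 and the lowest single value, -7.13, is in old replicative replicate 1.

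Libraries that share an age and a replicate number were also set against each other. Old numbers were not taken as pairs, so in old islets these are comparisons by number only. The replicative library was the lower one for 43, 44, 37 and 42 of the 44 genes in old replicates 1 to 4, and for 43, 44, 44, 42 and 44 in young replicates 1 to 5. The median difference in these comparisons ran from -2.07 (old replicate 2) to -0.79 (young replicate 4). For 32 of the 44 genes the replicative library was lower in all 9 comparisons, a count for which no share of the abundant genes is given. The largest number of exceptions, 7 genes, was in old replicate 3. All these counts rest on the contrast that chose the genes and are descriptions.

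The conditions were also applied without both libraries of 1 number, and the genes so chosen were read in that pair. Without old replicate 1, 2, 3 or 4 the conditions chose 42, 36, 46 and 41 genes, of which 41, 36, 38 and 39 were lower in the replicative library of the pair left out, with medians of -1.30, -2.04, -1.14 and -1.20. Without young replicate 1, 2, 3, 4 or 5 they chose 47, 38, 34, 49 and 53 genes, of which 45, 38, 34, 45 and 50 were lower in the pair left out, with medians of -0.87, -1.08, -1.06, -0.75 and -0.63. The lowest share was 82.6%, in old replicate 3. Among the remaining abundant genes, 52.2% to 62.6% were lower in the same pairs. The size factors behind the log2 levels were computed over all 18 libraries, so the pair left out still took part in the scaling. Old numbers were not taken as pairs, so a library of the same batch may have remained in the choice. From 34 to 44 genes of each choice were among the 44, so these readings are not independent of each other or of the first choice. They are descriptions and no test of the lower level.

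ENSRNOG00000007657, the most abundant of the 44, stood at log2 levels of 14.49, 14.70, 13.78 and 13.95 in old quiescent replicates 1 to 4 and at 13.25, 12.41, 13.18 and 13.53 in old replicative replicates 1 to 4. The old groups did not overlap. In young quiescent replicates 1 to 5 it stood at 14.01, 14.60, 14.97, 14.32 and 15.42, and in young replicative replicates 1 to 5 at 13.12, 13.65, 13.78, 13.92 and 14.83. The young groups overlapped through replicate 5, which was the highest of both groups, while the replicative library was lower in 5 of 5 same-numbered pairs. Its mean differences were -1.14 in old and -0.81 in young islets. Counts for this gene ran from 4242 to 49917.

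ENSRNOG00000008478 had the largest mean of both differences, -3.60 in old and -1.39 in young islets, and it was also the most variable of the 44 in old replicative libraries. It stood at 9.46, 11.53, 12.69 and 12.58 in old quiescent replicates 1 to 4. In old replicative replicates 1 to 4 it stood at 4.43, 8.17, 7.09 and 12.15, with 23, 422, 62 and 4767 counts. The old groups overlapped, since replicative replicate 4 was above quiescent replicates 1 and 2. Young quiescent libraries were closer together, at 9.56, 8.87, 9.15, 10.00 and 9.77, against 9.58, 6.68, 8.31, 7.44 and 8.40 in young replicative replicates 1 to 5. Young replicate 1 showed no lower level in its replicative library. The SD in old replicative libraries was 3.20 on the log2 scale (n = 4), so the mean difference in old islets is loosely set.

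The conditions used differences between replicative and quiescent cells and set no limit on differences between old and young cells of the same state. Both kinds of difference share the same group means, so the choice can still shift the age differences of the 44. The size of such a shift was not tested. The comparison of old with young cells asks whether these genes stand at another level in aged islets. Islets of old and young rats formed different batches, so age and batch cannot be told apart. Each comparison was fitted with edgeR's quasi-likelihood test on all genes of the 9 libraries concerned, with Benjamini-Hochberg adjustment over all genes tested and a threshold of 0.05. All 44 genes passed the filter on low counts in both fits. Replicate libraries are separate samples by their labels and batches of pooled rats by the series text.

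In quiescent cells, 1 of the 44 genes differed with age, higher in old islets, and 0 were lower. Of all 12846 genes tested 1.05% were called higher and 0.957% lower in old quiescent cells, and of the 2200 abundant genes 1.59% and 0.455%, so this count of 1 was near the background. The next 2 counts lay above the shares of all genes tested, and for them no share of the abundant genes is given. At an unadjusted p under 0.05 there were 19 of the 44, 11 higher and 8 lower, where 18.7% of all genes tested reached that level. By DESeq2 12 of the 44 were called, 8 higher and 4 lower, where that tool called 3.53% of all genes tested higher and 3.16% lower. The old minus young difference of the 44 had a median of 0.04 on the log2 scale and ran from -2.10 to 2.52, with 26 above and 18 below 0. The median over all genes tested was -0.02. The difference lay within 0.5 of 0 for 24 genes and beyond 1 for 4, with a median standard error of 0.23. Old and young quiescent libraries did not overlap for 1 gene with higher and 1 gene with lower old levels, where 3.32% and 2.23% of the abundant genes did not overlap in these directions.

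ENSRNOG00000013166 was the gene called. It stood at 10.27, 10.36, 10.64 and 10.55 in old quiescent replicates 1 to 4 and at 9.71, 10.02, 9.95, 9.50 and 9.44 in young quiescent replicates 1 to 5, with every old library above every young one. The log2 fold change was 0.77 (SE 0.156, edgeR adjusted p = 0.0280). The call was lost in the 4-group model (0.80, edgeR adjusted p = 0.583). With the replicate number as a block, which pairs nothing between old and young batches, it was also lost (0.71, edgeR adjusted p = 0.0650). Adjusted p-values over its 20 alternatives ran from 0.000304 to 0.583. Its call was also lost without old quiescent replicate 2, 3 or 4 or young quiescent replicate 3 or 5, with log2 fold changes between 0.70 and 0.83. In replicative cells it stood at 9.11, 9.31, 8.86 and 10.33 in old replicates 1 to 4 and at 8.55, 8.30, 9.04, 9.10 and 8.68 in young replicates 1 to 5. That difference was 0.75 (SE 0.362, edgeR adjusted p = 0.474) and did not pass the threshold.

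In replicative cells, 1 of the 44 genes differed with age, lower in old islets, and 0 were higher. Of all 13308 genes tested 0.0301% were called lower and 0.436% higher in old replicative cells, and of the 2200 abundant genes 0.182% and 0.318%. At an unadjusted p under 0.05 there were 13 of the 44, and all 13 were lower in old islets, where 10.9% of all genes tested reached that level in either direction. By DESeq2 4 were called, all lower, where that tool called 1.36% of all genes tested lower and 2.71% higher. The unadjusted count has no share by direction beside it, and neither count has a share of the abundant genes. The old minus young difference had a median of -0.18 and ran from -2.29 to 1.89, with 28 of the 44 below 0. It was larger than 1 in size for 8 genes. The median over all genes tested was -0.01, and 54.3% of the other 2150 abundant genes were below 0. Old and young replicative libraries did not overlap for 5 of the 44, all lower in old, where 4.05% of the abundant genes did not overlap in that direction and 2.59% in the other. Old replicative means entered the choice, and the 44 spread widest in that group (median SD 0.88, against 0.42 in young replicative libraries). Genes with low old replicative values could pass more readily, and the part of this in the shared direction was not tested. Large changes were needed for a call in this comparison. On simulated counts with the same libraries' depth and spread, the fit recovered 3 of 100 genes changed by 1 log2 unit and 59 of 100 changed by 2, against 82 and 100 of 100 in the fit of quiescent libraries. The changed genes were drawn at random from the better-covered genes. The 44 varied more than other abundant genes (median SD 0.88 against 0.54 in old replicative libraries), so recovery among the 44 was not measured.

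ENSRNOG00000023007 was the gene called in replicative cells. It stood at 9.61, 9.00, 8.95 and 9.04 in old replicative replicates 1 to 4 and at 9.87, 10.69, 10.52, 10.80 and 11.11 in young replicative replicates 1 to 5, with no overlap. The log2 fold change was -1.50 (SE 0.293, edgeR adjusted p = 0.0361). The call was lost in limma-voom with quality weights (-1.21, adjusted p = 0.169). With the replicate number as a block, which pairs nothing between old and young batches, it was also lost (-1.35, edgeR adjusted p = 0.217). Over 20 alternatives the adjusted p ran from 0.000562 to 0.217. The call was also lost without old replicative replicate 2 or 4, or without young replicative replicate 2, 3, 4 or 5, with log2 fold changes between -1.53 and -1.35. In quiescent cells the gene stood at 11.29, 11.33, 11.14 and 10.76 in old replicates 1 to 4 and at 11.11, 11.50, 11.49, 11.51 and 12.22 in young replicates 1 to 5. These groups overlapped, and the difference of -0.42 (SE 0.215, edgeR adjusted p = 0.310) did not pass the threshold. Its replicative minus quiescent differences, which chose it, were -1.99 in old and -0.96 in young islets.

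**Figure D4:**
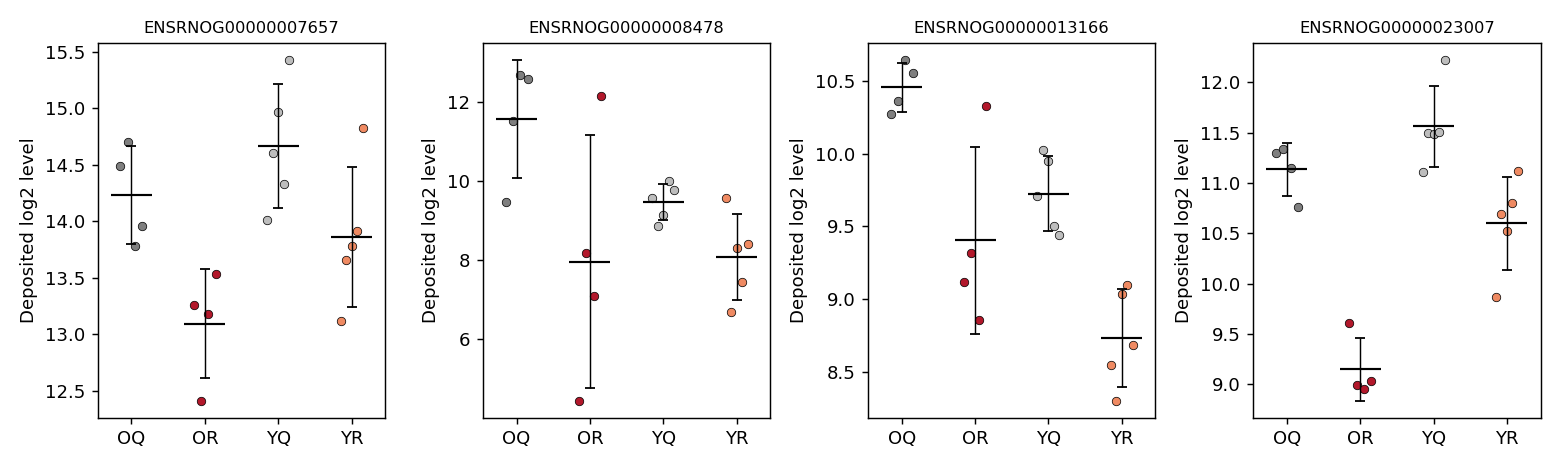
Deposited log2 level of the 4 genes given by ID in old quiescent (OQ), old replicative (OR), young quiescent (YQ) and young replicative (YR) libraries; points are libraries, lines the mean and error bars the SD, and each panel has its own vertical axis. ENSRNOG00000008478 ranges from 4.43 to 12.15 in old replicative libraries, while ENSRNOG00000023007 stays between 8.95 and 9.61 there.

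The 2 genes described for their level and their size of difference were not called with age. ENSRNOG00000007657 had old minus young differences of -0.43 in quiescent (SE 0.298, edgeR adjusted p = 0.460) and -0.84 in replicative cells (SE 0.311, edgeR adjusted p = 0.300). Without young replicate 5 of the state compared, these differences were -0.21 and -0.51, and with no filter on low counts the replicative one passed the threshold (-0.87, edgeR adjusted p = 0.00139). ENSRNOG00000008478 had differences of 2.52 in quiescent (SE 0.553, edgeR adjusted p = 0.0522) and 1.89 in replicative cells (SE 1.32, edgeR adjusted p = 0.716). The quiescent difference passed the threshold in 4 of 20 alternatives: in DESeq2 (adjusted p = 0.00161), in limma-voom with quality weights (adjusted p = 0.0196), with a filter of 1 CPM in every library of a group (edgeR adjusted p = 0.0486), and without old quiescent replicate 1, its lowest old quiescent library (log2 fold change 2.87, edgeR adjusted p = 0.00148). The sign of the replicative difference rested on old replicative replicate 4, without which it was -1.18 (edgeR adjusted p = 0.581), and it was also negative in limma-voom with quality weights (-0.70) and in limma-trend (-0.12).

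Age differences pointed the same way in both states for 32 of the 44 genes, 15 higher and 17 lower in old islets. Among the other 2150 abundant genes the signs matched for 63.2%. The 2 comparisons share no library, but the conditions that chose the 44 used the same group means as these age differences, so this count is a description.

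**Figure D5:**
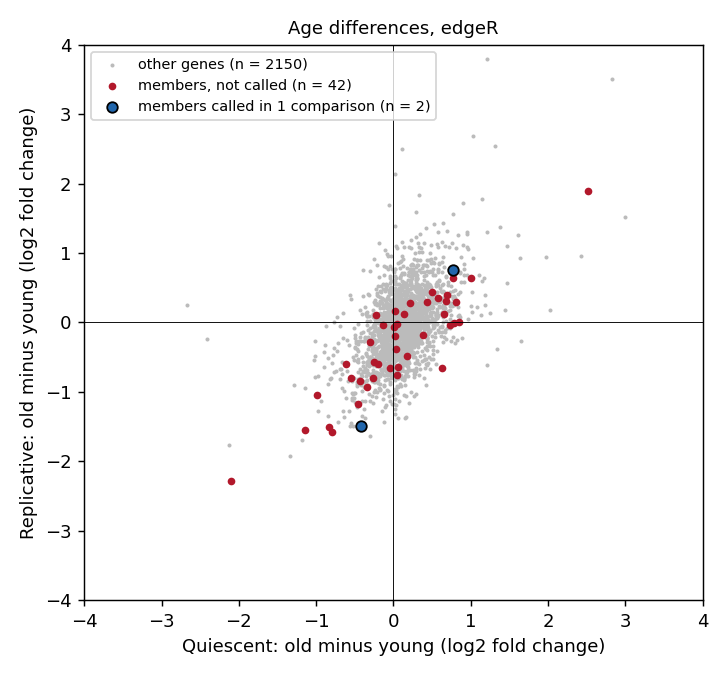
Old minus young log2 fold change from edgeR in quiescent (horizontal axis) and replicative (vertical axis) libraries; red points are 42 of the 44 genes with no call, blue points the 2 genes called in 1 comparison each, and grey points the other 2150 abundant genes, of which 1 lies outside the axes. The 44 genes range from -2.10 to 2.52 in quiescent and from -2.29 to 1.89 in replicative cells.

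Within groups, the 44 genes varied more between libraries than abundant genes in general. The median SD of their log2 level was 0.34 in the old quiescent group and 0.38 in the young quiescent group, against 0.18 and 0.25 for the other 2150 abundant genes. It was 0.88 in the old replicative group and 0.42 in the young replicative group, against 0.54 and 0.31. The SD was above the median of the other genes for 36 and 40 of the 44 in the quiescent groups (old, young) and for 29 and 31 in the replicative groups. A condition on a difference of means passes variable genes more readily, and the part of this in the wider spread was not tested.

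The 44 genes did not vary as a single block. Over the 946 pairs of genes, the correlation of deviations from the group means had a median Pearson r of 0.11 over all 18 libraries, with quartiles of -0.18 and 0.38, against a median of 0.03 among the other abundant genes. In the 9 quiescent libraries the medians were 0.03 for the 44 and 0.08 for the others. In the 9 replicative libraries they were 0.16 and 0.02, and 0.21 and 0.04 without old replicative replicate 3. The points share their libraries and scaling, so these values describe the samples and carry no p-value.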

How the data were processed

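RNA was sequenced in 18 libraries of 4 groups, placed by the titles of the labels. The deposited count table holds integer read counts for 27654 Ensembl rat gene IDs, not normalized by the authors. The deposited log2 values are log2(x + 1), where x is the count over a size factor of the median-of-ratios kind (largest difference on recomputing 5.3e-14). The submitters' processing notes name STAR, DESeq2 and rn6 without roles. Per the labels' protocols, libraries were made with a forward-stranded total RNA kit. For the counting program, annotation release and strand setting the entry is: not given in the sources used here. Overlapping genes and near-identical copies therefore carry an unmeasured uncertainty.

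The conditions that chose the 44 genes were applied to the log2 table. At levels of 9 and more the added 1 hardly affects a difference. Genes for text were, by rule, the most abundant of the 44, the one with the largest mean difference, and up to 2 per direction with the smallest p in each age comparison. The genes and lists were chosen with earlier results of these data known. The 23 gene lists of islet and pathway genes could not be run, for lack of gene names.

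Age comparisons used edgeR 4.0.16 in R 4.3.3 on the counts (filterByExpr with a minimum count of 10, TMM, robust quasi-likelihood fit, the 2 groups compared alone, because spreads differ between groups). A standard error is the absolute log2 fold change over √F. The fit was tested on simulated data. Alternatives covered the 4-group model, other scalings and filters, DESeq2 1.42.0, limma 3.58.1, thinning to 2723660 counts, a replicate block and leaving out libraries. No 2 libraries held identical counts.

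Quiescent and replicative young libraries with the same number deviated together from their group means over abundant genes (r = 0.477 to 0.661), each matching its own number best, so the numbers pair them. The numbers do not link old with young libraries.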

Additional observations from a re-analysis of the deposited data

Results flagged for a closer look

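The log2 level of ENSRNOG00000023007 in old replicative replicate 1 was 9.61, far from the other 3 old replicative libraries, which stood at 8.95, 9.00 and 9.04. The gap to the nearest of them was 0.870 of the range of the group. This library is the old replicative one closest to the young replicative level of the gene. Of 24 group values examined in this way it was the only one so placed, and chance alone places about 1 in 20.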

How the results depend on the processing

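The number of genes chosen followed the thresholds. It was 80 with a mean of at least 8, 28 with a mean of at least 10, 122 with differences of at most -0.6 and 14 with differences of at most -1, and it was 34 to 56 without single libraries or same-numbered pairs. On TMM-scaled log2 CPM values it was 51, including all 44, and with group medians 63, including 37. Without young replicative replicate 1, 37 genes were chosen, of which 29 were among the 44. The median difference of the 44 ran over the alternatives from -1.69 to -1.26 in old and -1.04 to -0.89 in young islets. The 44 were chosen for a lower replicative level in these same libraries, so the negative sign throughout is no test of it. These ranges show only how far the size of the median moved. Over all 14920 genes tested, the median replicative minus quiescent difference on the deposited log2 levels was -0.35 in old and -0.06 in young islets. Other scalings moved this median in old islets by -0.13 (TMM), -0.23 (upper quartile) and -0.15 (without the 10 most abundant genes). In young islets they moved it by -0.03, -0.08 and -0.04. With those 10 genes out of the total, the share of counts was 2.71% in old and 2.77% in young quiescent libraries, and 1.11% and 1.45% in old and young replicative ones.

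The counts of genes called with age changed with the setting, as did the share of all genes called, given in brackets. In quiescent cells the count of 1 was 0 in the 4-group model (0.0268%), 12 in DESeq2 (6.69%), 17 in limma-voom with quality weights (10.9%), 4 with no filter (1.96%) and 2 with 1 CPM in every library of a group (2.49%). It ran from 0 to 8 without single libraries, with 8 without old quiescent replicate 1 (5.26%). In replicative cells the count of 1 was 7 in the 4-group model (7.16%), 4 in DESeq2 (4.07%), 0 in limma-voom with quality weights (1.72%) and 6 with no filter (1.17%), and 0 to 2 without single libraries, with 2 without old replicative replicate 3 (0.825%). With the replicate block, which pairs nothing between old and young batches, both counts were 0 (0.732% of all genes in quiescent and 0.240% in replicative cells). The cause of these shifts was not tested. Quiescent and replicative libraries of the same number correlated in their deviations at 0.0732 to 0.420 in old islets, with 2 of 4 matching their own number best, so old numbers were not taken as pairs; averaging the differences within pairs gives the same mean difference.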
